A study of Mus musculus with 12 samples.

Results

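Mast cells exposed to nano-SiO2 alone were set directly against mast cells stimulated with the antigen DNP-HSA alone, to see which expressed genes were higher with either stimulus. The comparison holds 6 of the 12 RNA-seq libraries of the series, 3 from the SiO2 group and 3 from the DNP-HSA group, chosen by their treatment labels, and no blank library entered the test. All 6 were bone marrow-derived mast cells (BMMCs) of BALB/c mice, with no genotype given beyond the strain, grown with IL-3 and stem cell factor, and the labels of the groups differ by the stimulus alone. The study asked whether silica particles of the kind found in smog add to mast cell activation through IgE, and its other libraries are blank cells and cells given both stimuli. Neither the dose and exposure time of the sequenced cells nor whether they had been sensitized with anti-DNP IgE is given in the sources used here. BMMCs are a culture made from mixed marrow cells, the number of mice behind the libraries is not given, and whether the libraries of a group are separate cultures is not said, so a p-value here reflects no more than how these libraries vary, which may be technical.

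Mast cells carry IgE on the high-affinity receptor FcεRI. An antigen such as DNP-HSA that bridges IgE molecules activates the kinases Lyn and Syk, calcium release, the MAP kinases and NF-kB, and within minutes to hours the cells release granules and transcribe immediate early genes, cytokines and chemokines. Silica particles are known best from macrophages, which take them up, and where they damage lysosomes and activate the NLRP3 inflammasome.

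The RNA was poly(A)-selected and sequenced in paired reads of 150 bases from strand-marked libraries. Levels below are estimated counts summed per gene and scaled to the TMM library size (CPM), and values of 3 libraries stand in the order unnumbered, 1 and 2, since 1 library of each group carries no number in its label. The estimated counts totalled 60634426 to 70921993 in the SiO2 libraries and 66678016 to 76718065 in the DNP-HSA libraries. Both groups held the defining genes of mast cells: *Kit* was at 878 to 1414 FPKM, *Fcer1a* at 2506 to 3228 and *Cpa3*, the mast cell carboxypeptidase, at 7754 to 9207 over the 6 libraries, and the 12 mast cell markers summed to 20425 to 29418 FPKM with SiO2 and 20124 to 27663 with DNP-HSA.

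Markers of other cell types differed between the libraries. *Lyz2*, the lysozyme of macrophages and neutrophils, was at 3.64, 64.8 and 34.0 FPKM in the SiO2 libraries and at 3.71, 30.8 and 60.1 in the DNP-HSA libraries. The neutrophil gene *S100a8* was at 0, 6.53 and 0 FPKM with SiO2 and at 0, 0.294 and 5.89 with DNP-HSA. The basophil protease *Mcpt8* was at 24.3, 5.32 and 0.964 FPKM with SiO2 and at 20.7, 1.11 and 3.34 with DNP-HSA. The unnumbered libraries of the groups were thus alike in these markers and, in *Lyz2* and *Mcpt8*, apart from the numbered ones. In *S100a8* they were at 0, as was SiO2 2. SiO2 1 resembled DNP-HSA 2 and SiO2 2 resembled DNP-HSA 1. Summed over whole lists, the 13 macrophage and monocyte markers were at 26.3 to 83.7 FPKM with SiO2 and 22.3 to 75.1 with DNP-HSA, the 11 neutrophil markers at 1.15 to 31.0 and 1.56 to 32.0, and the 6 basophil markers at 184 to 217 and 162 to 177. The sums were 1.5 to 6.45 and 0.893 to 5.15 FPKM for 8 eosinophil markers, 5.71 to 18.6 and 4.19 to 12.1 for the 11 listed of 15 lymphocyte and dendritic cell markers, of which *Flt3* and *Klrb1c* were at 0 in all 6 libraries, and 389 to 748 and 492 to 681 for 10 erythroid and megakaryocyte markers. The basophil sum was higher in every SiO2 library than in any DNP-HSA library, and the other sums overlapped. The part of these cells in the results below was not tested, and in bulk RNA fewer cells of a type and less RNA per cell cannot be told apart.

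No gene was called for either stimulus. Genes reaching 1 FPKM in 3 or more of the 6 libraries were tested, 11962 in all, and 0 were higher in the SiO2 group and 0 higher in the DNP-HSA group at an adjusted p under 0.05 (edgeR quasi-likelihood test, Benjamini-Hochberg; 0.0% each way). At an unadjusted p under 0.05 there were 54 genes higher with SiO2 (0.451% of those tested) and 49 higher with DNP-HSA (0.41%), together 103 (0.861%). This is below the share of 0.05 that such a threshold gives where no gene differs, so it shows no excess. limma on log2(FPKM + 1) and limma-voom also called 0 genes each way, and DESeq2 called 0 genes higher with SiO2 and 3 higher with DNP-HSA: *Dusp18*, *Dyrk3* and *Gm12279*, a provisional gene model named because the count is small. The median size of a difference was 0.14 on the log2 scale, below the median standard error of 0.32. This fit pairs no libraries, so differences that libraries of the groups share count in that error. For 6845 genes (57.2%) the 95% interval of the difference lay inside 2-fold either way, so a difference of 2-fold or more is not compatible with that interval, while for the remaining genes the interval does not exclude one. An exact permutation test of 3 against 3 libraries cannot go below p = 0.1, so none is given for single genes.

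Without a test, genes can be described by whether the libraries of the groups overlap. In 192 genes (1.61%) every SiO2 library lay above every DNP-HSA library, and in 197 (1.65%) every DNP-HSA library lay above every SiO2 library, together 3.25% of the genes tested. If the stimulus labels carried no difference, 3 against 3 libraries would separate in a share of 0.1 of genes, so these shares show no excess. A difference of at least 2-fold was present as well in 29 genes higher with SiO2 (0.242%) and 22 higher with DNP-HSA (0.184%), together 0.426%. Whether or not the libraries overlapped, 174 genes (1.45%) were at least 2-fold higher with SiO2 and 67 (0.56%) with DNP-HSA. Leaving out provisional symbols, shared symbols and genes under a mean of 5 CPM, 8 genes higher with SiO2 and 11 higher with DNP-HSA remained, and since these 19 were chosen for their values, their separation is given as a description. The log2 difference was above 0 in 50.4% of genes and below 0 in 49.6%, with 47.1% above 0 between the unnumbered libraries and 48.4% between the numbered ones. Between the unnumbered libraries 5.35% of genes were at least 2-fold higher with SiO2 and 3.81% with DNP-HSA, and between the numbered libraries 1.32% and 1.35%. Differences between single libraries were larger than those between groups: 9.16% of genes differed by at least 2-fold between the unnumbered libraries, 2.96% between SiO2 2 and DNP-HSA 1, and 18.0% between the unnumbered SiO2 library and DNP-HSA 1.

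**Figure D1:**
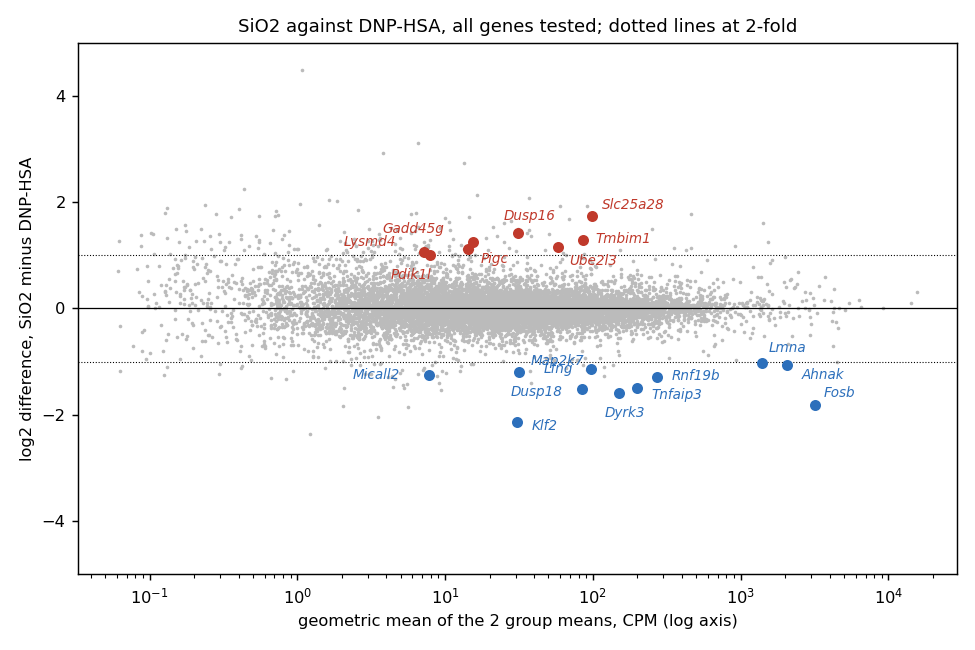
Log2 difference of each of the 11962 genes tested (SiO2 minus DNP-HSA, vertical axis) against the geometric mean of the group means in CPM (horizontal log axis), with the 19 genes named in blue (higher in DNP-HSA) or red (higher in SiO2). Most genes lie close to 0, and the named genes stand beyond the dotted lines at 2-fold.

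The genes with the clearest separation towards DNP-HSA encode a phosphatase and a kinase. *Dusp18* (ENSMUSG00000047205, chr11:3895240-3901296 of GRCm38) encodes a dual-specificity phosphatase, and was at 51.5, 54.9 and 44.0 CPM in the SiO2 libraries and at 158, 159 and 114 in the DNP-HSA libraries. Every DNP-HSA library was at more than 2 times the highest SiO2 library, and the means of 50.1 ± 5.56 and 144 ± 25.7 CPM (SD, n = 3 libraries each) are 2.87-fold apart. The log2 difference, SiO2 minus DNP-HSA, was -1.52 with a standard error of 0.22 and a 95% interval of -2.04 to -1.0 (unadjusted p = 0.000175, adjusted p = 1.0, edgeR with Benjamini-Hochberg). It was -1.61 between the unnumbered libraries and -1.47 between the numbered ones. Per length, *Dusp18* stood at 5.95 to 11.7 FPKM in the 3 blank libraries of the series, 8.72 to 11.1 with SiO2 and 20.1 to 32.6 with DNP-HSA, so that the SiO2 libraries lay within the blank range.

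*Dyrk3* (chr1:131127455-131138340) encodes a kinase that controls the dissolution of RNA-protein condensates such as stress granules. It was at 78.3, 89.2 and 92.9 CPM with SiO2 and at 212, 338 and 239 with DNP-HSA. The groups did not overlap, with means of 86.8 ± 7.58 and 263 ± 66.4 CPM (SD, n = 3 libraries each), a log2 difference of -1.60 and a standard error of 0.25 (unadjusted p = 0.000281, adjusted p = 1.0, edgeR with Benjamini-Hochberg). Its level of 19.5 to 27.2 FPKM with SiO2 overlapped the 17.0 to 25.3 FPKM of the blank libraries, against 62.5 to 95.6 with DNP-HSA. In DESeq2 the adjusted p was 7.79e-05 for *Dusp18* and 9.57e-05 for *Dyrk3*, both with unchanged log2 differences.

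The named genes on the DNP-HSA side include 2 transcription factors, *Klf2* and *Fosb*. *Klf2* (ENSMUSG00000055148, chr8:72319033-72321656) encodes a zinc finger factor best known for quiescence in T cells and endothelium, and was at 25.5, 7.03 and 11.3 CPM with SiO2 and at 71.3, 41.2 and 81.2 with DNP-HSA. It had the largest fold of the 19 genes, 4.42-fold, and the groups did not overlap. The log2 difference was -2.14, its standard error 0.50 and its 95% interval -3.32 to -0.97 (unadjusted p = 0.00320, edgeR). The blank libraries were at 1.89 to 4.93 FPKM, the SiO2 libraries at 3.57 to 10.8 and the DNP-HSA libraries at 19.7 to 36.9. *Fosb* (ENSMUSG00000003545, chr7:19302696-19310051), a Fos family subunit of AP-1, was at 2546, 637 and 1883 CPM with SiO2 and at 6212, 5891 and 5676 with DNP-HSA. The DNP-HSA libraries were close together with a mean of 5926 ± 270.0 CPM (SD, n = 3), all above the more scattered SiO2 libraries with a mean of 1689 ± 969, and the log2 difference was -1.81 (standard error 0.50, unadjusted p = 0.00764, edgeR). *Fosb* was at 14.6 to 103 FPKM in the blank libraries, 185 to 611 with SiO2 and 1419 to 1851 with DNP-HSA, so the SiO2 libraries stood between the others.

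*Tnfaip3* (ENSMUSG00000019850, chr10:19000910-19015657) encodes A20, a ubiquitin-editing enzyme that is induced by NF-kB and limits it. It was at 69.2, 89.7 and 194 CPM with SiO2 and at 442, 257 and 302 with DNP-HSA. The groups did not overlap, with means of 118 ± 67.1 and 334 ± 96.7 CPM and a log2 difference of -1.5 (standard error 0.43, unadjusted p = 0.00909, edgeR). The difference was -2.67 between the unnumbered libraries and -0.98 between the numbered ones, and the blank libraries were at 7.79 to 12 FPKM against 11.4 to 40.5 with SiO2 and 47.9 to 86.6 with DNP-HSA.

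The promoters of *Klf2* and *Tnfaip3* are shown as examples. These genes had non-overlapping groups on the DNP-HSA side and a motif of an inducible factor near the start. So had *Fosb* and *Lmna*, which are not shown. Each run covers 250 bases before to 50 bases after a RefSeq start on GRCm38.p6, 5′ to 3′ on the gene's strand, with matches to a motif in capitals, a single MEF2 match in *Klf2* and an AP-1 match followed by a pair of NF-kB matches in *Tnfaip3*. The *Klf2* window is chr8:72318812-72319111 (plus strand) and the *Tnfaip3* window chr10:19015361-19015660 (minus strand).
Klf2: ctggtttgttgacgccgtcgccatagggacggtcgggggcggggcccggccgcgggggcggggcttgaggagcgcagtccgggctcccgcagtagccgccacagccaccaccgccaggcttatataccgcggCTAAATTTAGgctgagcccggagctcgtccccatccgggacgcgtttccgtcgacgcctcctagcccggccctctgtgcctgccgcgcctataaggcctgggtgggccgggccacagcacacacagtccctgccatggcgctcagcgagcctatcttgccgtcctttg
Tnfaip3: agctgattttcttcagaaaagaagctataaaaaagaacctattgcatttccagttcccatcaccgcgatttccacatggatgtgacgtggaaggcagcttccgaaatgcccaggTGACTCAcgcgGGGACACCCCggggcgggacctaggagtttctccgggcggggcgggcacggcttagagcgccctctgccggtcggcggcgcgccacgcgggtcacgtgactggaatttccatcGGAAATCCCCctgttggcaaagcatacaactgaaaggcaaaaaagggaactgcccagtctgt
The AP-1 motif searched was TGACTCA on both strands, a match held by 5.2% of the 32851 RefSeq promoter windows of this length, and the NF-kB and MEF2 motifs are held by 8.46% and 3.19%. A further *Tnfaip3* start held no match, and it is the start of the protein-coding isoform ENSMUST00000105527. The protein-coding ENSMUST00000019997 and the retained-intron ENSMUST00000154590 start within the window shown. Among the 19 genes AP-1 was matched in *Lmna* and *Tnfaip3*, NF-kB in *Fosb* and *Tnfaip3*, MEF2 in *Dusp16*, *Klf2* and *Ube2l3*, and the serum response element (1.63% of windows) in *Pdik1l*. The cAMP response element TGACGTCA (1.79% of windows) and the EGR motif GCGTGGGCG (0.612%) were matched in 0 of the 19. A match is a description of these letters and no evidence of binding.

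The 6 remaining genes on the DNP-HSA side encode enzymes, structural proteins and a kinase. *Lfng*, a glycosyltransferase that modifies Notch, was at 56.5, 79.3 and 59.2 CPM with SiO2 and at 111, 147 and 173 with DNP-HSA (log2 difference -1.14, standard error 0.25). *Rnf19b*, a ubiquitin ligase, was at 163, 216 and 142 CPM with SiO2 and at 306, 535 and 429 with DNP-HSA (-1.29, 0.30). In both genes the groups did not overlap, and the blank libraries, at 27.7 to 50.2 FPKM for *Lfng* and 49.6 to 82.4 for *Rnf19b*, overlapped the SiO2 range of 19.6 to 32.6 and 77.6 to 120.5 FPKM. *Ahnak*, a giant scaffold protein under the plasma membrane, was at 1162, 1292 and 1817 CPM with SiO2 and at 3221, 3420.0 and 2259 with DNP-HSA (-1.06, 0.32). *Micall2*, an adaptor of Rab proteins and actin, was at 4.45, 6.28 and 4.30 CPM with SiO2 and at 17.3, 11.4 and 7.21 with DNP-HSA (-1.25, 0.39). These levels of *Micall2* are low, and all SiO2 libraries, at 1.09 to 1.80 FPKM, were below the blank range of 4.60 to 8.10, which the DNP-HSA libraries, at 1.76 to 5.00, partly overlapped. In FPKM the SiO2 and DNP-HSA ranges of *Micall2* thus overlapped slightly. *Lmna*, which encodes the nuclear lamins A and C, was at 785, 1401 and 733 CPM with SiO2 and at 1511, 1719 and 2685 with DNP-HSA (-1.02, 0.38). In FPKM summed over its isoforms the *Lmna* groups overlapped. *Map2k7*, the kinase MKK7 that activates JNK, was at 38.1, 11.5 and 13.5 CPM with SiO2 and at 41.1, 54.9 and 48.8 with DNP-HSA. Its log2 difference of -1.20 (standard error 0.46) came from the numbered libraries, where it was -2.06, and was -0.11 between the unnumbered ones.

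On the SiO2 side the clearest separation was that of a ubiquitin-conjugating enzyme. *Ube2l3* (ENSMUSG00000038965, chr16:17152013-17202649) encodes UbcH7, a partner of the ligases parkin and HOIP, and was at 86.3, 78.8 and 95.0 CPM with SiO2 and at 49.8, 36.9 and 29.7 with DNP-HSA. The means of 86.7 ± 8.13 and 38.8 ± 10.2 CPM (SD, n = 3 libraries each) are 2.24-fold apart and the groups did not overlap (log2 difference 1.16, standard error 0.24, unadjusted p = 0.00161, adjusted p = 1.0, edgeR with Benjamini-Hochberg). The SiO2 libraries, at 30.1 to 35.3 FPKM, were above the 16.4 to 25.0 of the blank libraries, and the DNP-HSA libraries, at 11.8 to 19.5, reached below them. *Tmbim1* (ENSMUSG00000006301, chr1:74288247-74305622), a membrane protein of the Bax inhibitor family, was at 120.5, 134 and 148 CPM with SiO2 and at 36.8, 53.8 and 73.6 with DNP-HSA (log2 difference 1.29, standard error 0.28, unadjusted p = 0.00209, edgeR). Here too the groups did not overlap in CPM, with means of 134 ± 13.6 and 54.7 ± 18.4 CPM. In FPKM summed over its isoforms the *Tmbim1* groups did overlap. Both genes overlap another gene on the opposite strand, *Ydjc* at a mean of 2.23 CPM for *Ube2l3* and *Pnkd* at 12 CPM for *Tmbim1*, and whether the counting used strand is not given.

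The other SiO2-side genes were lower or more uneven. *Pigc*, an enzyme of the first step of GPI anchor synthesis, was at 17.1, 26.4 and 19.9 CPM with SiO2 and at 10.3, 7.17 and 11.7 with DNP-HSA (log2 difference 1.12, standard error 0.30). *Slc25a28*, mitoferrin-2 of mitochondrial iron import, was at 365, 75.0 and 103 CPM with SiO2 and at 54.0, 43.1 and 66.3 with DNP-HSA (1.73, 0.58). *Dusp16*, a phosphatase of JNK and p38, was at 98.1, 28.3 and 26.1 CPM with SiO2 and at 11.8, 21.1 and 23.8 with DNP-HSA (1.43, 0.56). In *Slc25a28* and *Dusp16* the unnumbered SiO2 library was far above the others: the log2 difference was 2.75 and 3.00 between the unnumbered libraries and 0.70 and 0.28 between the numbered ones. *Gadd45g*, a stress protein that binds an upstream kinase of p38 and JNK, was at 40.3, 12.7 and 18.3 CPM with SiO2 and at 9.74, 8.72 and 11.4 with DNP-HSA (1.25, 0.43). *Pdik1l*, a protein kinase gene, was at 7.19, 12.8 and 13.6 CPM with SiO2 and at 6.18, 5.95 and 4.64 with DNP-HSA (1.0, 0.34). Per length *Pdik1l* was below the blank range of 4.13 to 5.25 FPKM in both groups, at 1.73 to 3.38 with SiO2 and 1.36 to 1.53 with DNP-HSA. *Lysmd4*, a LysM domain gene that overlaps *Mef2a* (65.7 CPM, opposite strand), was at 5.73, 12 and 13.3 CPM with SiO2 and at 4.26, 5.22 and 5.29 with DNP-HSA (1.07, 0.38). In FPKM summed over its isoforms the *Lysmd4* groups overlapped.

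**Figure D2:**
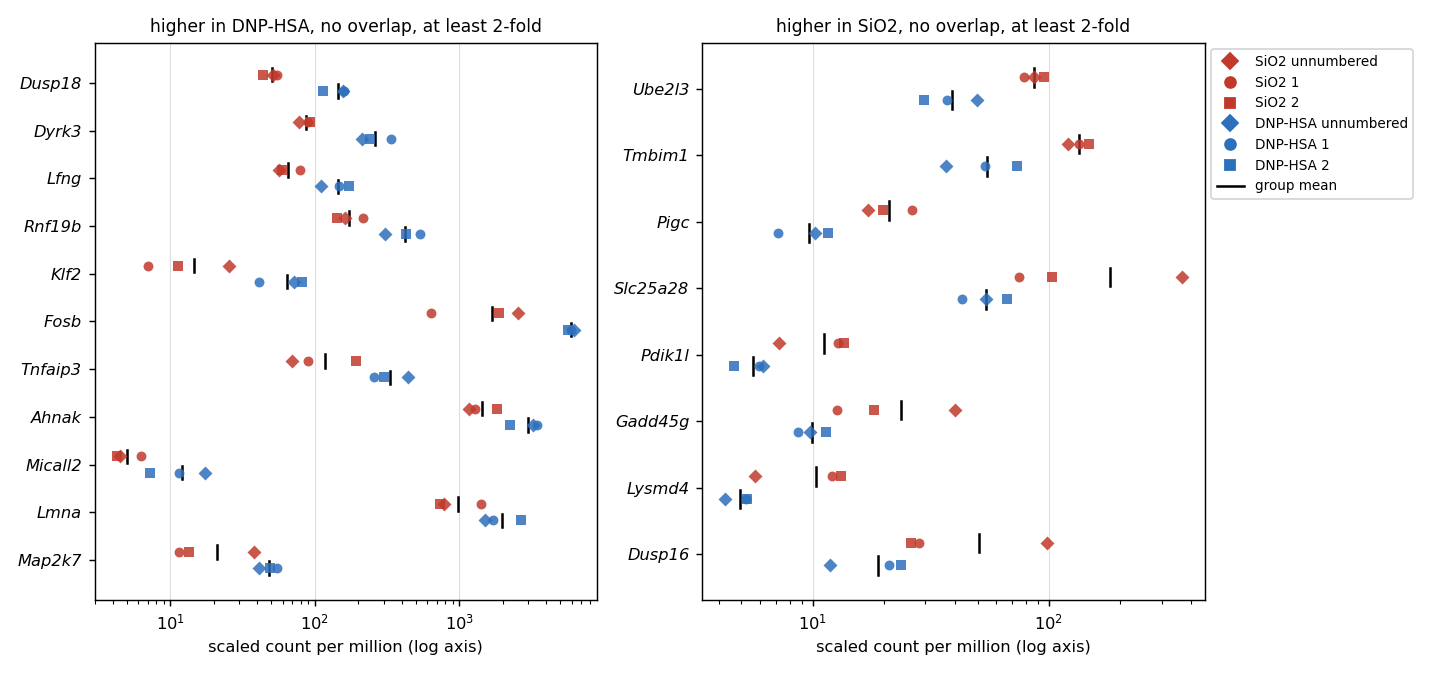
Level of the 19 named genes in each of the 6 libraries in CPM (log axis); red marks are SiO2 libraries, blue marks DNP-HSA libraries, the shape gives the library label and the black bar the group mean. In every gene drawn the marks of one colour lie to one side of those of the other, since the genes were chosen for that, and *Slc25a28* and *Dusp16* show the unnumbered SiO2 library apart from the others.

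The sums per gene covered unlike isoforms. *Dusp18* and *Klf2* had a single listed isoform, and 99.5% to 99.9% of the *Dyrk3* count was on one. In *Tmbim1* the long protein-coding isoform ENSMUST00000113796 (11011 bases) held 88.4%, 89.0% and 88.2% of the gene count in the SiO2 libraries and 36.3%, 55.2% and 54.2% in the DNP-HSA libraries. Its level was 7.60, 10.2 and 10.9 FPKM with SiO2 and 1.16, 2.39 and 2.96 with DNP-HSA, without overlap, and the gene's higher count with SiO2 lay in this isoform. In *Slc25a28* most of the count was on a retained-intron isoform, ENSMUST00000235953, at 70.5, 15.7 and 20.7 FPKM with SiO2 and 9.63, 7.32 and 11.8 with DNP-HSA. The protein-coding ENSMUST00000046038 of *Slc25a28* was at 7.43, 5.54 and 6.82 FPKM with SiO2 and 6.53, 4.45 and 4.93 with DNP-HSA, so its groups overlapped. In *Map2k7* the isoform ENSMUST00000062686 held 21.5%, 7.04% and 5.76% of the count with SiO2 and 70.0%, 56.8% and 71.2% with DNP-HSA, while ENSMUST00000110998 held 64.1%, 56.1% and 22.2% and 14.2%, 11.7% and 19.3%. In *Lmna* the isoform ENSMUST00000029699 was at 157, 49.9 and 21.8 FPKM with SiO2 and 397, 437 and 291 with DNP-HSA, without overlap. Its share of the *Lmna* count, 80.4%, 12% and 10.2% with SiO2 and 86.8%, 90.7% and 41.9% with DNP-HSA, overlapped, as did the level of ENSMUST00000120377, at 27.6, 565 and 287 FPKM and at 12.3, 12.9 and 416. *Tnfaip3* differed in both of its main isoforms: the retained-intron ENSMUST00000154590 was at 5.79, 6.03 and 17.1 FPKM with SiO2 and 42.1, 21.6 and 21 with DNP-HSA, and the protein-coding ENSMUST00000105527 at 3.98, 6.52 and 15.4 and at 36.0, 18.5 and 22.6.

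**Figure D3:**
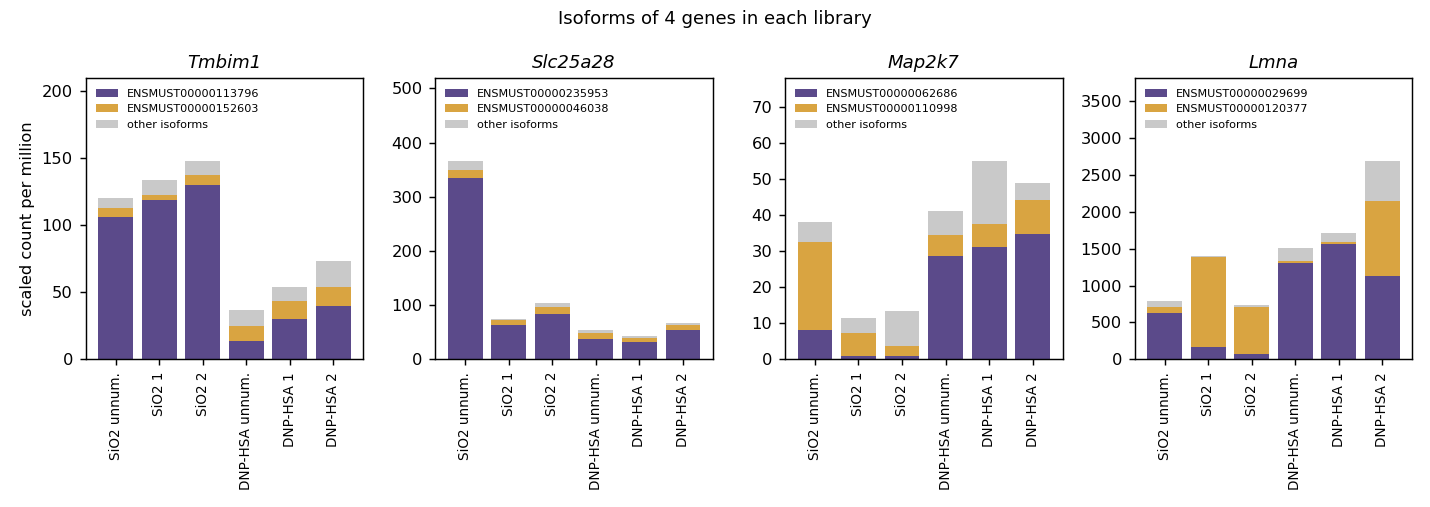
Isoforms of *Tmbim1*, *Slc25a28*, *Map2k7* and *Lmna* in each of the 6 libraries, as stacked bars from 0 of the gene's CPM split by the share of the count on each isoform. The long *Tmbim1* isoform, *Map2k7* ENSMUST00000062686 and *Lmna* ENSMUST00000029699 separate the groups.

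Among 30 immediate early transcription factors, the class that cells transcribe first on stimulation, 0 passed the test, 3 had an unadjusted p under 0.05 on the DNP-HSA side (0.41% of all genes tested) and 2 of these, *Fosb* and *Klf2*, had non-overlapping groups (1.65%). The median log2 difference of the list was -0.33, beside 0.00 over all genes tested, with 10 members above 0 and 20 below (49.6% of all genes lay below). The median was 0.51 between the unnumbered libraries and -0.78 between the numbered ones, where 27 of 30 lay below 0. *Jund*, an AP-1 subunit, was at 469.9, 893 and 619 CPM with SiO2 and at 805, 1172 and 1918 with DNP-HSA (log2 difference -0.97, standard error 0.41), with an overlap of SiO2 1 and the unnumbered DNP-HSA library. *Nr4a1*, an orphan nuclear receptor, was at 6029.9, 2296 and 1526 CPM with SiO2 and at 3867, 3644 and 8544 with DNP-HSA (-0.70, 0.59). Its difference had opposite signs within the labels, 0.64 between the unnumbered and -1.67 between the numbered libraries, and both groups were far above the 8.25 to 34.0 FPKM of the blank libraries, at 678 to 2160 FPKM with SiO2 and 1323 to 2894 with DNP-HSA. *Egr4*, of the early growth response family, was at 13.3, 8.87 and 2.86 CPM with SiO2 and at 21.4, 10.8 and 24.2 with DNP-HSA (-1.18, 0.56). *Atf3*, a stress-induced bZIP repressor, was at 1287, 125 and 122 CPM with SiO2 and at 142, 112 and 629 with DNP-HSA (0.80, 1.05), where 1 library of each group stood out. *Nr4a3*, a further member of the *Nr4a* family, was at 3135, 1327 and 779.6 CPM with SiO2 and at 929, 1056 and 2199 with DNP-HSA (0.33, 0.57).

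Feedback genes of NF-kB gave no call. Of 22 measured genes of NF-kB subunits and feedback 0 passed, 2 had an unadjusted p under 0.05 (0.41% of all genes tested) and 2 had no overlap (1.65%), all on the DNP-HSA side, and 15 of 22 lay below 0 (49.6% of all genes) with a median of -0.25. The median was -0.02 between the unnumbered libraries and -0.30 between the numbered ones. *Nfkbia*, the inhibitor IκBα, was at 51.4, 43.2 and 38.7 CPM with SiO2 and at 159, 39.1 and 90.7 with DNP-HSA (log2 difference -1.12, standard error 0.46), with DNP-HSA 1 inside the SiO2 range. *Tnip1*, a partner of A20, was at 28.9, 49.7 and 43.4 CPM with SiO2 and at 56.3, 56.7 and 52.7 with DNP-HSA (-0.44, 0.24), a small gap without overlap. The kinase *Map3k7*, TAK1, which links receptors to NF-kB and MAP kinases, was at 66.7, 49.4 and 53 CPM with SiO2 and at 156, 63.1 and 112 with DNP-HSA (-0.97, 0.34). Its groups overlapped, with DNP-HSA 1 below the unnumbered SiO2 library. Of 11 mRNA decay factors, which shorten the life of cytokine mRNAs, 1 had an unadjusted p under 0.05 (0.41% of all genes tested) and 2 had no overlap (1.65%), both on the DNP-HSA side, with a median of -0.23. The median of the mRNA decay factors was 0.02 without SiO2 1 and -0.52 without the unnumbered SiO2 library. These were *Zc3h12a*, the ribonuclease Regnase-1, at 28.6, 42.3 and 45.8 CPM with SiO2 and 84.4, 68.0 and 76.3 with DNP-HSA (-0.97, 0.24), and *Tob2*, an antiproliferative deadenylation factor, at 195, 214 and 172 and at 215, 273 and 369 (-0.56, 0.26). In *Zc3h12a* the gap between the groups exceeded the spread within either, while in *Tob2* the lowest DNP-HSA library lay barely above the highest SiO2 library.

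Genes of MAP kinase feedback gave no call. Of 10 genes measured in the list of MAP kinase phosphatases 0 passed the test. This list takes in *Dusp18* as a dual-specificity phosphatase, and whether it acts on MAP kinases was not tested. *Dusp16* on the SiO2 side and *Dusp18* on the DNP-HSA side had an unadjusted p under 0.05 and no overlap. Over all genes tested, 0.451% on the SiO2 side and 0.41% on the DNP-HSA side had such a p. No overlap was found in 1.61% and 1.65%. The median was 0.35, with 1.38 between the unnumbered libraries and -0.55 between the numbered ones. Of 7 measured ERK feedback inhibitors, which include the Sprouty and Spred proteins, 6 lay above 0 (50.4% of all genes) with a median of 0.62. Among these inhibitors 0 had an unadjusted p under 0.05 or non-overlapping groups. Their median was 1.41 between the unnumbered libraries and -0.071 between the numbered ones. Of 23 MAP kinase cascade kinases, with a median of 0.00, *Map3k8* had an unadjusted p under 0.05 on the SiO2 side (0.451% of all genes tested). On the DNP-HSA side *Map2k7* and *Map3k7* did (0.41%). *Map3k8*, the kinase TPL2 upstream of ERK, was at 262, 45.0 and 42.4 CPM with SiO2 and at 23.9, 15.0 and 53 with DNP-HSA (log2 difference 1.93, standard error 0.81, unadjusted p = 0.0458, edgeR). DNP-HSA 2 lay above both numbered SiO2 libraries, and the difference was 3.43 between the unnumbered and 0.36 between the numbered libraries.

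Cytokine and chemokine genes were highest in 1 library. All 6 measured type 2 and hematopoietic cytokines had their highest value of the 6 libraries in the unnumbered SiO2 library, as did 7 of 12 inflammatory cytokines and 8 of 10 chemokines, against 22.2% of all genes tested. *Tnf* was at 6016, 782 and 587 CPM with SiO2 and at 877, 109 and 1443 with DNP-HSA. The SiO2 mean of 2462 ± 3080 CPM rested on its unnumbered library, without which the groups interleave, and the log2 difference of 1.60 had a 95% interval of -0.99 to 4.20. *Il6*, a cytokine of the acute phase, was at 1893, 239 and 285 CPM with SiO2 and at 418, 233 and 638 with DNP-HSA (log2 difference 0.91, standard error 0.82). *Il13*, a driver of mucus and IgE responses, was at 1409, 339 and 128 CPM with SiO2 and at 144, 85.4 and 650.0 with DNP-HSA (1.09, 1.0). In both genes the unnumbered SiO2 library was the highest and DNP-HSA 2 the next. The chemokine *Ccl3* was at 5885, 665 and 491 CPM with SiO2 and at 1118, 360.0 and 1481 with DNP-HSA (1.25, 0.98). *Ccl4*, a further CC chemokine, was at 3364, 496 and 295 CPM and at 625, 204 and 1001 (1.18, 0.96). *Csf2*, the growth factor GM-CSF, was at 96.5, 4.93 and 2.61 CPM with SiO2 and at 2.87, 0.297 and 12.5 with DNP-HSA (2.73, 1.60). *Il3*, the mast cell growth factor itself, was at 50.7, 5.14 and 1.93 CPM with SiO2 and at 0, 0.0744 and 6.58 with DNP-HSA. *Csf1*, the macrophage growth factor, was high in both unnumbered libraries, at 1934, 368 and 407 CPM with SiO2 and 1729, 846 and 1124 with DNP-HSA (-0.45, 0.67).

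The sign of these lists turned with the label of the libraries. For type 2 and hematopoietic cytokines the median was 1.01 over all 6 libraries, 2.57 between the unnumbered and -0.64 between the numbered ones. For inflammatory cytokines it was 0.55, 1.54 and -0.37, and for chemokines 0.22, 1.44 and -0.58, beside 0.00, -0.03 and -0.01 over all genes tested. No member of the 3 lists had an unadjusted p under 0.05 or groups that did not overlap. Between the unnumbered libraries the log2 difference was 2.78 for *Tnf*, 2.18 for *Il6*, 3.28 for *Il13* and 2.40 for *Ccl3*, and between the numbered libraries -0.18, -0.74, -0.65 and -0.67. With 1 library a side the former values have no replicate. The basophil marker *Mcpt8* was at 24.3 FPKM in the unnumbered SiO2 library and at 20.7 in the unnumbered DNP-HSA library. The 6 basophil markers summed to 184 to 217 FPKM with SiO2 and 162 to 177 with DNP-HSA. Whether basophils had a part in these differences was not tested. All SiO2 libraries, at 330.0 to 2894 FPKM of *Tnf*, and all DNP-HSA libraries, at 58.8 to 721, were above the blank range of 13.0 to 19.1.

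**Figure D4:**
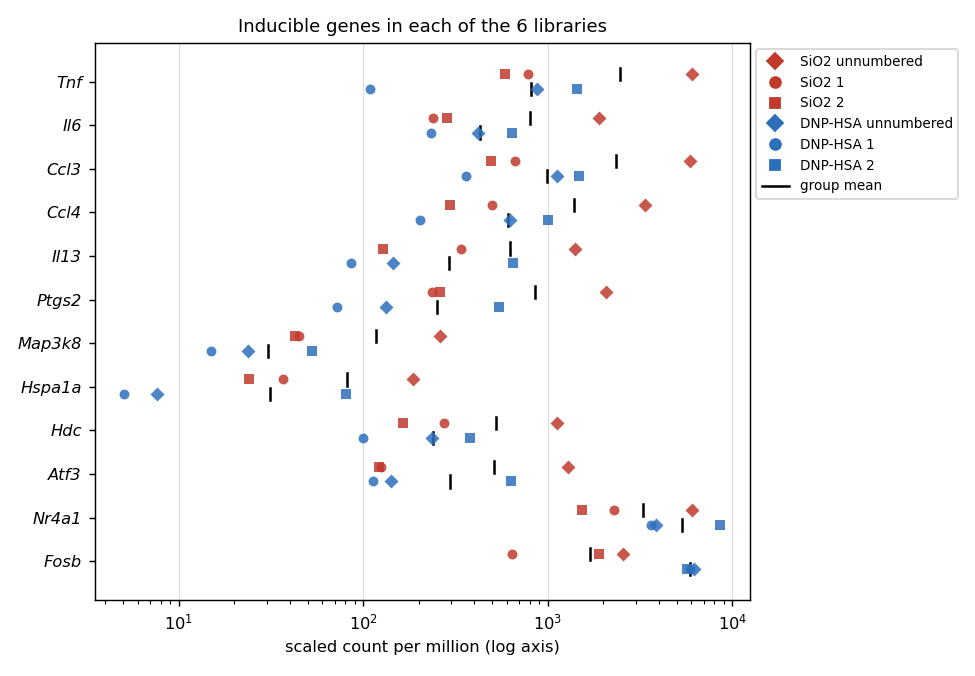
Level of 12 inducible genes in each of the 6 libraries in CPM (log axis); colours, shapes and bars are as in the plot of the named genes. For *Tnf*, *Il6*, *Ccl3*, *Ccl4*, *Il13* and *Ptgs2* the red diamond of the unnumbered SiO2 library lies to the right of the other 5 marks, and for *Fosb* all blue marks lie to the right of the red ones.

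The study names 11 genes with nano-silica, *Nr4a1*, *Il6*, *Gadd45b*, *Ccl4*, *Ccl3*, *Malt1*, *Map3k8*, *Hspa1a*, *Tnf*, *Ptgs2* and *Areg*, and since it chose them on these libraries their direction is not independent evidence. The paper set nano-silica and DNP-HSA each beside the blank group, and it names *Gadd45b* and *Nr4a1* only as MAPK pathway genes that changed. The values here set SiO2 directly against DNP-HSA, which is another comparison, so they are no check of the paper's. Of the 11, 0 passed the test and 0 had groups that did not overlap. An unadjusted p under 0.05 was found for 1, *Map3k8*, on the SiO2 side (0.451% of all genes tested). The median log2 difference was 1.25 with 10 of 11 above 0, 2.43 between the unnumbered libraries with 11 above 0, and -0.31 between the numbered ones with 10 below 0. *Ptgs2*, the prostaglandin synthase COX-2, was at 2072, 235 and 262 CPM with SiO2 and at 132, 72.1 and 545 with DNP-HSA (log2 difference 1.78, standard error 1.05). *Hspa1a*, the inducible chaperone HSP70, was at 185, 36.6 and 24.0 CPM with SiO2 and at 7.63, 5.07 and 80.6 with DNP-HSA (1.4, 1.17). In both, DNP-HSA 2 lay above the numbered SiO2 libraries and the other DNP-HSA libraries below them. *Areg*, the EGF receptor ligand amphiregulin, was at 28.6, 2.16 and 0.712 CPM with SiO2 and at 0.951, 0 and 3.17 with DNP-HSA (2.93, 1.74). *Malt1*, the protease of the CARD-BCL10-MALT1 complex that feeds NF-kB, was at 597, 181 and 289.8 CPM with SiO2 and at 193, 282 and 217 with DNP-HSA (0.63, 0.44). *Gadd45b*, a stress protein like *Gadd45g*, was at 153, 96.5 and 55.7 CPM and at 44.5, 27.5 and 156 (0.42, 0.65).

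The receptor and secretory machinery differed little. Of 31 measured genes of the IgE receptor and proximal signalling 0 passed the test and 0 had an unadjusted p under 0.05, with a median of -0.05. Of the 31, 25 had a 95% interval inside 2-fold either way, beside 57.2% of all genes tested. *Fcer1a*, the IgE-binding chain, was at 3149.8, 3389 and 3039 CPM with SiO2 and at 2595, 2919 and 3699.7 with DNP-HSA, and the log2 difference of 0.06 had a 95% interval of -0.60 to 0.71. *Ms4a2*, the beta chain, was at 1283, 1094 and 1705 CPM and at 1479, 1631 and 1064, with an interval of -0.75 to 0.68. *Kit*, the stem cell factor receptor, was at 4735, 4544 and 5684 CPM and at 5124, 6072 and 4169.8, with an interval of -0.73 to 0.66. The groups overlapped in all 3 genes, and the intervals stay inside 2-fold either way. Of 17 SNARE and exocytosis genes 16 had an interval inside 2-fold (57.2% of all genes, list median -0.01). *Stx4a*, a plasma membrane syntaxin, was at 98.9, 94.3 and 96.6 CPM with SiO2 and at 88.9, 95.0 and 97.0 with DNP-HSA (interval -0.36 to 0.45). *Snap23*, its partner in granule fusion, was at 208, 178 and 203 CPM and at 168, 198 and 181 (interval -0.36 to 0.57). The groups of 1 member did not overlap, *Rab27a*, a small GTPase of granule docking, at 14.4, 18.9 and 18.2 CPM with SiO2 and at 22.6, 21.2 and 19.2 with DNP-HSA (log2 difference -0.29, standard error 0.23), beside 1.65% of all genes tested. Of 26 lysosome genes 21 had an interval inside 2-fold (57.2% of all genes, list median -0.02), and 0 of 21 heat shock chaperones and co-chaperones had an unadjusted p under 0.05 (median 0.03). The median level was 208 CPM in the IgE receptor list, 70.7 in the SNARE list and 74.6 in the lysosome list. Over all genes tested it was 25.3 CPM.

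Granule genes and the inflammasome list gave no call either. Of 16 mast cell proteases and granule genes 14 lay above 0 (50.4% of all genes) with a median of 0.14, and 0 had an unadjusted p under 0.05. The median was 0.36 between the unnumbered libraries and -0.031 between the numbered ones, where 6 of 16 lay above 0, and it was -0.0095 without DNP-HSA 1. *Cpa3* was at 15992, 14212 and 13556 CPM with SiO2 and at 12674, 12639.9 and 15599 with DNP-HSA (log2 difference 0.10, interval -0.61 to 0.80). *Hdc*, the enzyme that makes histamine, was at 1127, 275 and 164 CPM with SiO2 and at 236, 99.3 and 381 with DNP-HSA (1.13, standard error 0.77), and *Gzmb*, granzyme B, at 6619.6, 3837 and 3345 and at 2283, 2214 and 4651 (0.59, 0.43). Both had their highest value in the unnumbered SiO2 library. Of 9 measured inflammasome genes 1 had an unadjusted p under 0.05, on the DNP-HSA side (0.41% of all genes tested). This was *Nek7*, a kinase that NLRP3 needs for activation, at 86.1, 68.7 and 75.4 CPM with SiO2 and at 76.7, 250.1 and 226 with DNP-HSA (-1.26, 0.42, unadjusted p = 0.0184, edgeR). The numbered DNP-HSA libraries stood apart and the unnumbered one lay within the SiO2 range.

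**Figure D5:**
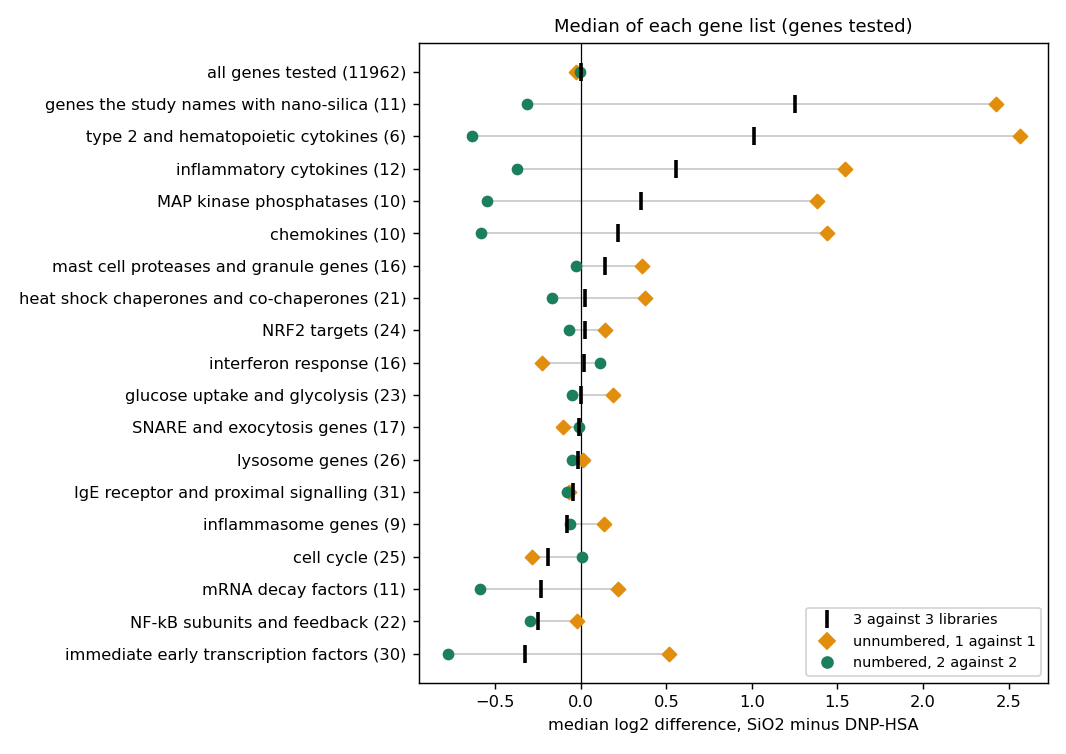
Median log2 difference (SiO2 minus DNP-HSA) of each gene list, with the number of genes tested in brackets; black bars are all 6 libraries, orange diamonds the unnumbered libraries alone (1 against 1) and green circles the numbered libraries alone (2 against 2). The cytokine, chemokine and study-named lists have diamonds above 0 and circles below 0, and the SNARE, lysosome and IgE receptor lists stay near 0 in all.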

How the data were processed

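RNA of 3 SiO2 and 3 DNP-HSA BMMC libraries was compared; the table covers 12 libraries, and 0 value columns were unmapped. Tools listed in the submitters' processing notes, in no stated role, are edgeR, DESeq2, StringTie 1.3.4d, HISAT2 2.0.4 and cutadapt 1.9. The authors deposited FPKM values per isoform, normalized to isoform length and library, and an estimated count per isoform that is not normalized between libraries. No source used here names the genome build, but isoform starts and ends equal GENCODE M21 (GRCm38) for 84070 of 84272 shared identifiers (99.8%).

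Estimated counts were summed per gene and scaled with TMM factors of 0.894 to 1.09. Genes reaching a summed 1 FPKM in 3 or more of 6 libraries were tested with the quasi-likelihood test of edgeR 4.0.16 (trended, robust) in R 4.3.3, with Benjamini-Hochberg adjustment over 11962 genes. Because counts are estimates shared out between isoforms, they carry less precision than totals of 60634426 to 76718065 imply. Differences within labels are ratios of single libraries with 0.5 CPM added, and a fit of the numbered libraries alone. Alternatives used limma 3.58.1 on log2(FPKM + 1) and log2(FPKM + 0.1), limma-voom, DESeq2 1.42.0, other scalings and filters, replicate blocks and left-out libraries. The scripts were tested on simulated data.

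Named genes were, each way, up to 12 of lowest unadjusted p with non-overlapping groups, at least 2-fold apart and at a mean of at least 5 CPM, without provisional or shared symbols, then up to 4 each way of each of 42 lists (726 genes, 586 tested), the genes the study names, and markers. Members and lists were chosen with earlier results of these data known. Promoter sequences are from RefSeq.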

Additional observations from a re-analysis of the deposited data

How the results depend on the processing

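Over 376 values of the 19 named genes under the alternatives, 2 passed an adjusted p of 0.05, the DESeq2 values of *Dusp18* (-1.52) and *Dyrk3* (-1.60). The sign was opposite in 0, which the choice of these genes for non-overlapping groups nearly fixed in advance. With 1 library left out, some fell under the 2-fold that helped choose them: the ranges were 0.52 to 1.74 for *Dusp16*, 0.64 to 1.55 for *Gadd45g*, 0.71 to 2.10 for *Slc25a28*, -1.38 to -0.73 for *Lmna*, -1.52 to -0.89 for *Micall2* and -1.95 to -0.90 for *Map2k7*. *Klf2* ranged from -2.82 to -1.81. The call counts of 0 held under all edgeR and limma alternatives, under each library left out (0 to 0 each way), and DESeq2 called 3 genes higher with DNP-HSA and 0 with SiO2. A replicate block on the library labels gave 0 and 0 calls, with 48 and 52 genes at an unadjusted p under 0.05, and a block of 2 levels, unnumbered against numbered, 83 and 94. Equal numbers do not pair the numbered libraries. Deviations from the group means correlated at -0.0365 for 1 and -0.22 for 2, against 0.57 for SiO2 2 with DNP-HSA 1 and 0.40 for SiO2 1 with DNP-HSA 2. Only the unnumbered libraries correlated best with their own label, at 0.481. Not every library correlated best with its own number, no label gives a crosswise pairing and none was fitted, so the calls under the block say nothing of one.

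Genes at least 2-fold higher with SiO2 and without overlap numbered 29, and 350 without a filter, 9 under a filter of 5 FPKM and 9 on log2(FPKM + 1). Those higher with DNP-HSA numbered 22, and 163 without a filter. The remaining alternatives for these counts and for the lists were chosen after seeing the data. Without the 2 unnumbered libraries the counts were 112 and 111, and with 1 library left out 54 to 152 and 46 to 94, higher by construction since fewer libraries have to separate.

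Without the 2 unnumbered libraries the log2 difference turned to -0.18 for *Tnf*, -0.74 for *Il6*, -0.65 for *Il13*, -0.76 for *Csf2*, -0.67 for *Ccl3*, -0.61 for *Ccl4*, -0.31 for *Ptgs2*, -0.14 for *Areg*, -0.50 for *Hspa1a*, -0.085 for *Malt1*, -0.13 for *Hdc* and -0.51 for *Hmox1*. The list medians turned to -0.64 (type 2 cytokines), -0.37 (inflammatory cytokines), -0.58 (chemokines), -0.55 (MAP kinase phosphatases) and -0.31 (genes the study names). With 1 library left out the ranges were -0.24 to 2.32 for *Tnf*, -0.72 to 1.34 for *Il6*, -0.33 to 2.45 for *Il13*, -0.47 to 4.45 for *Csf2*, -0.77 to 1.73 for *Ccl3*, -0.62 to 1.74 for *Ccl4*, -0.0068 to 3.07 for *Ptgs2*, -0.037 to 3.69 for *Hspa1a*, -0.12 to 1.64 for *Hdc* and -0.45 to 1.19 for *Hmox1*. The lowest value of each came without the unnumbered SiO2 library. List medians ranged from -0.31 to 1.85 (type 2), -0.25 to 1.21 (inflammatory), -0.49 to 0.86 (chemokines), -0.43 to 0.65 (MAP kinase phosphatases) and -0.73 to 0.12 (immediate early factors). The last was above 0 without DNP-HSA 2, and the chemokine median was -0.14 without DNP-HSA 1 and -0.49 without the unnumbered SiO2 library, which also gave the lowest value of the other lists. The cause was not tested.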

Other observations

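Cell cycle genes lay below 0 in 22 of 25 measured members (49.6% of all genes lay below; median log2 difference -0.19), and 0 had an unadjusted p under 0.05 in edgeR. The median was -0.29 between the unnumbered libraries and 0.01 between the numbered ones. With 1 library left out, the cell cycle median ranged from -0.64 without the unnumbered SiO2 library to 0.47 without the unnumbered DNP-HSA library. It was also above 0, at 0.18, without SiO2 2. *Ccnd2*, which encodes cyclin D2, was the 1 member whose groups did not overlap (1.61% of all genes on the SiO2 side), at 602, 366 and 389.8 CPM with SiO2 and at 299, 343 and 360.0 with DNP-HSA (log2 difference 0.44, standard error 0.27). No member had an interval inside 2-fold, beside 57.2% of all genes tested. In the integrated stress response list of 21 genes the median was 0.07. There 1 member, *Ddit3*, the stress factor CHOP, had an unadjusted p under 0.05, on the SiO2 side (0.451% of all genes tested). It was at 103, 66.2 and 65.6 CPM in the SiO2 libraries (unnumbered, 1 and 2) and at 54.6, 45.8 and 53.4 in the DNP-HSA libraries, without overlap (log2 difference 0.61, standard error 0.24, unadjusted p = 0.0367, edgeR). On that side 1.61% of all genes had no overlap. Per length, *Ddit3* was at 59.1 to 86.0 FPKM in the blank libraries, 67.9 to 94.0 with SiO2 and 45.7 to 58.4 with DNP-HSA, so that the DNP-HSA libraries lay below the blank range. *Gadd45a*, a p53 target, was at 25.9, 11.3 and 9.74 CPM with SiO2 and at 7.03, 6.54 and 10.2 with DNP-HSA (0.98, 0.43). *Cd274*, the checkpoint ligand PD-L1, was at 246, 158 and 232 CPM with SiO2 and at 133, 137 and 164 with DNP-HSA (0.55, 0.24), with SiO2 1 inside the DNP-HSA range.

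Glucose uptake and glycolysis had a median of 0.00 over 23 genes and 2 members without overlap, both on the DNP-HSA side (1.65% of all genes tested). One was *Slc2a3*, the glucose transporter GLUT3, at 594, 691 and 545 CPM with SiO2 and 737, 989.9 and 1048 with DNP-HSA (-0.60, 0.26). *Nfatc2*, a calcium-dependent transcription factor, was at 35.2, 49.8 and 71.1 CPM with SiO2 and at 93.5, 144 and 64.6 with DNP-HSA (-0.95, 0.37), with DNP-HSA 2 below SiO2 2. *Rhob*, a small GTPase, was at 156, 78.7 and 96.4 CPM and at 189, 138 and 279.7 (-0.88, 0.36), with DNP-HSA 1 below the unnumbered SiO2 library. Of 24 NRF2 targets, the antioxidant program, 0 had an unadjusted p under 0.05 and the median was 0.02. *Sqstm1*, the autophagy receptor p62, was at 2998, 2365 and 2065 CPM with SiO2 and at 3617, 3353 and 3477 with DNP-HSA, without overlap (-0.49, 0.28). No overlap on the DNP-HSA side was found in 1.65% of all genes tested. *Hmox1*, heme oxygenase 1, was at 292, 50.1 and 64.2 CPM and at 72.1, 61.2 and 101 (0.79, 0.65). The interferon response had a median of 0.02 over 16 genes, and 0 of them had an unadjusted p under 0.05.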
